A study of Mus musculus with 2 samples.

Results

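The ADAMTS proteases described here are 8 genes, Adamts1, Adamts2, Adamts4, Adamts5, Adamts9, Adamts12, Adamts15 and Adamts16, of the 19 mouse ADAMTS genes listed and of all 31054 features in the count tables. They were chosen by symbol with measured levels in these same libraries already known, so their levels, their differences between cell classes and the counts made from them are a description and support nothing by themselves. The libraries came from gonadal adipose tissue of 18-month-old p16-CreERT2/R26-LSL-tdTomato mice, in which tamoxifen-activated Cre, driven from the p16 (Cdkn2a) locus, permanently switches on the red reporter tdTomato. Both libraries were sorted as CD31- and CD45- cells, and their labels differ in the sort on the reporter, giving 1 Tom+ and 1 Tom- library. The question was how reporter-marked adipocyte progenitor cells (APCs) differ from unmarked ones of the same tissue. How many mice went into each library is not given in the sources used here, and the reporter records p16 promoter activity at the time of induction rather than the current level of p16.

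ADAMTS proteins are secreted zinc metalloproteases that carry thrombospondin repeats and work in the extracellular matrix. One branch cuts the large chondroitin sulphate proteoglycans versican and aggrecan, another removes the amino-terminal propeptide of fibrillar procollagens, and others cut matrix glycoproteins. Most are made as inactive precursors that furin-type convertases activate, several are blocked by TIMP3, and the receptor LRP1 clears some of them from outside the cell. In fat, remodelling of this matrix accompanies the growth of the depot and the differentiation of progenitors into adipocytes.

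The 8 genes lie on 7 chromosomes of the GRCm38 assembly. Adamts1 (chr16:85793827-85803113, minus strand) and Adamts5 (chr16:85856173-85901828, minus strand) are neighbours, 53059 bases apart. Adamts2 lies at chr11:50602084-50807573 on the plus strand, Adamts4 at chr1:171250421-171260637 on the plus strand, Adamts9 at chr6:92772699-92943492 on the minus strand, Adamts12 at chr15:11064790-11349231 on the plus strand, Adamts15 at chr9:30899155-30922452 on the minus strand and Adamts16 at chr13:70727802-70841811 on the minus strand. Genes annotated as antisense overlap Adamts2, Adamts9 and Adamts16. The 250 bases before the RefSeq start were matched for 4 of the 8 genes (GRCm38.p6). Those of Adamts9 and Adamts12 are shown because these genes had the lowest and the highest Tom+ over Tom- ratio of the 8 in stromal cells. Capitals mark matches, on either strand, to any of 5 motifs, the TATA box TATAAA, the AP-1 site TGANTCA, the CRE (cyclic AMP response element) TGACGTCA, the GC box GGGCGG and the CCAAT box. The Adamts9 window is chr6:92943535-92943784 on the minus strand and the Adamts12 window is chr15:11064523-11064772 on the plus strand.
Adamts9: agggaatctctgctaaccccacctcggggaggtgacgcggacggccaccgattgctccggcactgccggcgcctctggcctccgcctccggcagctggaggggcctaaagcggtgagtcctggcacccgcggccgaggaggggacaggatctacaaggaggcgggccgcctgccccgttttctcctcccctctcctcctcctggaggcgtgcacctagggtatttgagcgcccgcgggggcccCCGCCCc
Adamts12: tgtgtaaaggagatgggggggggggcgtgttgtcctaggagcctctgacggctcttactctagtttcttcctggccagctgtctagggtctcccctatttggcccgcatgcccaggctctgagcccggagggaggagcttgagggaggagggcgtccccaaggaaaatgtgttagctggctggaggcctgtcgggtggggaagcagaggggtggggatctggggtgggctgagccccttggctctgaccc
The Adamts9 window holds 1 match, to the GC box on the opposite strand, a motif found in 32.7% of 32851 windows of this length. The Adamts12 window holds no match to these letters. The TATA box was found in 12.4% of all windows, the AP-1 site in 6.75%, the CRE in 1.55% and the CCAAT box in 33.8%.

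After the filter on genes and mitochondrial share, 3524 Tom+ and 6717 Tom- cells remained. Mesothelial cells, which line the depot, were taken as cells with at least 10 UMIs (unique molecular identifiers, counted transcript molecules) summed over Msln, Upk3b, Krt19, Lrrn4 and Upk1b, and stromal cells as those with under 5. The Tom+ library thus held 3263 stromal and 250 mesothelial cells and the Tom- library 4800 and 1887, with 11 and 30 cells in between left out. Median UMIs per stromal cell were 14235 and 11270. The 9 mesothelial markers that the rule did not use had higher levels in the mesothelial class in both libraries, and the stromal markers Pdgfra, Lum and Dpt were higher in the stromal class. Cd34, a progenitor surface marker, was higher in mesothelial cells of both libraries (435 and 417 UMIs per 1000000 UMIs of the class, or CPM, against 294 and 292 CPM). Of the listed interstitial progenitor markers, Dpp4, Sema3c and Anxa3 were higher there too, while Pi16 and Cd55 were lower. Pi16 read 22.2 and 16.5 CPM against 139 and 237 CPM, and Cd55 131 and 114 CPM against 187 and 214 CPM. The stromal class was not free of other cells. A cluster of 223 of its cells was led by Igkc, Igha and Ighg2c, and smaller clusters were led by mast cell genes (27 cells) and T cell genes (44 cells), although the sort was for CD45- cells. The 6 immune markers summed to 45665 CPM in Tom+ and 10808 CPM in Tom- stromal cells, almost all of it Igkc. Of the filtered cells, 506 Tom+ and 284 Tom- cells had a barcode that the other table lists too, mostly at low depth (median 670 and 665 UMIs there), and 9 barcodes passed the filter in both. With 1 library per condition no test is possible, so intervals below are 95% intervals of counting error only, and the sort cannot be told apart from library preparation.

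The 8 genes were mostly stromal transcripts. Levels are in CPM, from UMIs counted at transcript 3' ends, and ratios are taken between cells and not between genes. Adamts5, an aggrecan- and versican-cleaving protease, had stromal levels of 1249 CPM (Tom+) and 1032 CPM (Tom-). In mesothelial cells it stood at 204 and 162 CPM. Both mesothelial values were thus below both stromal values, with mesothelial over stromal log2 ratios of -2.61 (Tom+) and -2.67 (Tom-). Without the barcodes listed in both tables the Tom+ ratio was -3.45. The Tom- ratio stayed between -2.89 and -2.67 under every alternative tried.

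Its neighbour Adamts1, which also cuts proteoglycans, read 421 and 473 CPM in stromal and 143 and 172 CPM in mesothelial cells of the Tom+ and Tom- library. Adamts2, the procollagen N-proteinase, read 453 and 405 CPM in stromal and 130 and 142 CPM in mesothelial cells. These 2 genes kept a clear mesothelial level, with a UMI in 68.8% and 80.8% of Tom+ mesothelial cells. Their mesothelial over stromal log2 ratios ran from -1.80 to -1.46 over both libraries.

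Adamts4, the first aggrecanase described, read 43.9 and 99.3 CPM in Tom+ and Tom- stromal cells against 1.88 and 8.34 CPM in mesothelial cells. Adamts12, which can cut cartilage oligomeric matrix protein, read 105 and 72.9 CPM against 3.19 and 5.25 CPM. For both genes the mesothelial over stromal ratio was close to that of Dpt and Lum, the lowest of the 9 listed stromal markers. The log2 ratios were -4.55 and -3.57 for Adamts4 and -5.04 and -3.79 for Adamts12, beside -4.48 and -3.79 for Dpt and -4.69 and -3.50 for Lum. The median log2 ratio over the 9 markers was less low, at -2.71 (Tom+) and -2.46 (Tom-). Whether mesothelial cells produce Adamts4 and Adamts12 was not tested. Where the low mesothelial readings of these genes and markers came from was not tested either.

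Adamts9, a versican-cleaving protease with roles inside and outside the cell, differed least between the classes in the Tom+ library. Its stromal levels were 36.9 and 111 CPM and its mesothelial levels 16.7 (95% interval 13.4 to 20.6) and 28.1 CPM. A UMI was found in 21.2% and 21.8% of mesothelial cells, while the stromal share differed between the libraries at 12.5% and 29.5%. After every cell was thinned to 7204 UMIs the shares were 9.31% and 12.4% of mesothelial and 9.23% and 26.5% of stromal cells. Adamts9 was thus about as frequent in Tom+ mesothelial as in Tom+ stromal cells, but at a lower CPM.

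The remaining members were low. Adamts15, another proteoglycan-cleaving member, read 24.6 and 18.6 CPM in stromal and 4.13 and 3.62 CPM in mesothelial cells. Adamts16 read 5.64 and 6.82 CPM in stromal and 1.32 and 0.742 CPM in mesothelial cells, from 7 and 24 mesothelial UMIs. In the mesothelial comparison 7 of 8 genes passed the level of a mean of 5 CPM, all but Adamts16, and 7 were at least 2-fold lower in mesothelial cells in each library. Over all genes tested, 10.1% (Tom+) and 9.22% (Tom-) were at least 2-fold lower. None of the 7 was at least 2-fold higher, a size that 13.1% and 11.9% of all genes reached, and because the choice of the members knew these values the counts are not evidence about the group.

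**Figure D1:**
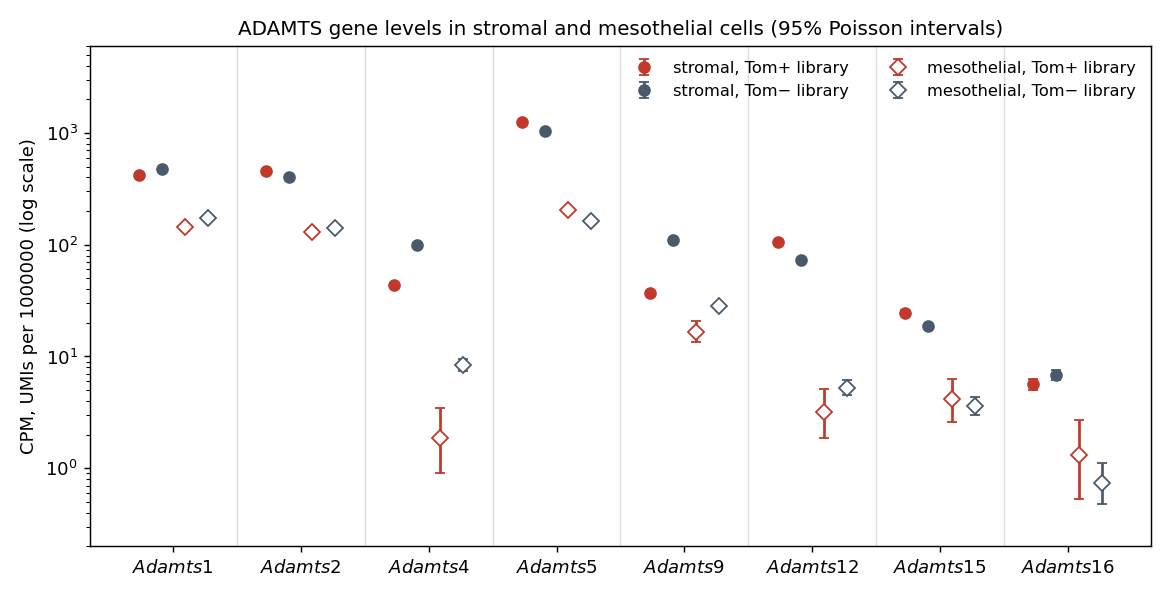
Levels of the 8 ADAMTS genes (x axis) in CPM on a log scale (y axis), with filled circles for stromal and open diamonds for mesothelial cells, red for the Tom+ and grey for the Tom- library, and bars for the 95% Poisson interval of counting error. Every mesothelial point lies below both stromal points of its gene, and Adamts4 and Adamts9 show the widest gap between the red and grey circles, at 43.9 against 99.3 and 36.9 against 111.

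How widely each gene was detected differed. In stromal cells thinned to 7204 UMIs, Adamts5 was found in 91.8% of Tom+ and 91.3% of Tom- cells and Adamts2 in 89.1% and 87.0%. Adamts1 was found in 72.1% and 74.4% and Adamts12 in 43.2% and 33.1%. Adamts15 was found in 13.0% and 9.54% and Adamts16 in 3.41% and 3.87%. Such a cell held UMIs of a median of 3 of the 8 genes in each library, and no cell held all 8.

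Between the sorted libraries, Adamts9 and Adamts4 were the members at least 1.5-fold lower in Tom+ stromal cells. The log2 ratio of Tom+ over Tom- was -1.59 (95% interval -1.67 to -1.52) for Adamts9 and -1.18 (-1.25 to -1.10) for Adamts4. In the order of all 9778 genes tested, these ratios stood at the 0.153 and 0.583 percentile. Fewer cells carried the transcripts: after thinning, a UMI of Adamts9 was found in 9.23% of Tom+ and 26.5% of Tom- stromal cells, and a UMI of Adamts4 in 13.3% and 22.8%.

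The other members differed less. Adamts12 (0.53, 95% interval 0.47 to 0.58), Adamts15 (0.41), Adamts5 (0.28) and Adamts2 (0.16) had log2 ratios above 0. Those of Adamts1 (-0.17) and Adamts16 (-0.28, 95% interval -0.50 to -0.05) were below 0. The members went both ways, 4 above and 4 below 0, with a median log2 ratio of -0.004, beside 0.07 over all genes. In counts, 2 of 8 members were at least 1.5-fold lower in Tom+ stromal cells, a size reached by 3.25% of all genes, and 0 of 8 were at least 1.5-fold higher, against 3.86% of all genes. These are 318 lower and 377 higher genes, which became 394 lower and 261 higher with median-of-ratios size factors. Adamts12 lay close to the 1.5-fold line and crossed it once the clusters led by immune genes were left out.

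Because the Tom+ and Tom- libraries held the stromal clusters in different proportions, the ratio was also taken with the 8 clusters that held at least 50 cells of each library weighted equally. On that scale Adamts9 fell from a difference of -1.59 to -0.46 and Adamts4 from -1.18 to -0.23, and 0 of 8 members were 1.5-fold lower. Over all genes the count at least 1.5-fold lower fell too, from 318 to 152. Adamts5 (0.30), Adamts15 (0.43) and Adamts2 (0.19) stayed close to their summed values. Adamts12 moved from 0.53 to 0.25, and Adamts1 changed sign, to 0.10. In this weighting the clusters with the highest CPM count most.

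**Figure D2:**
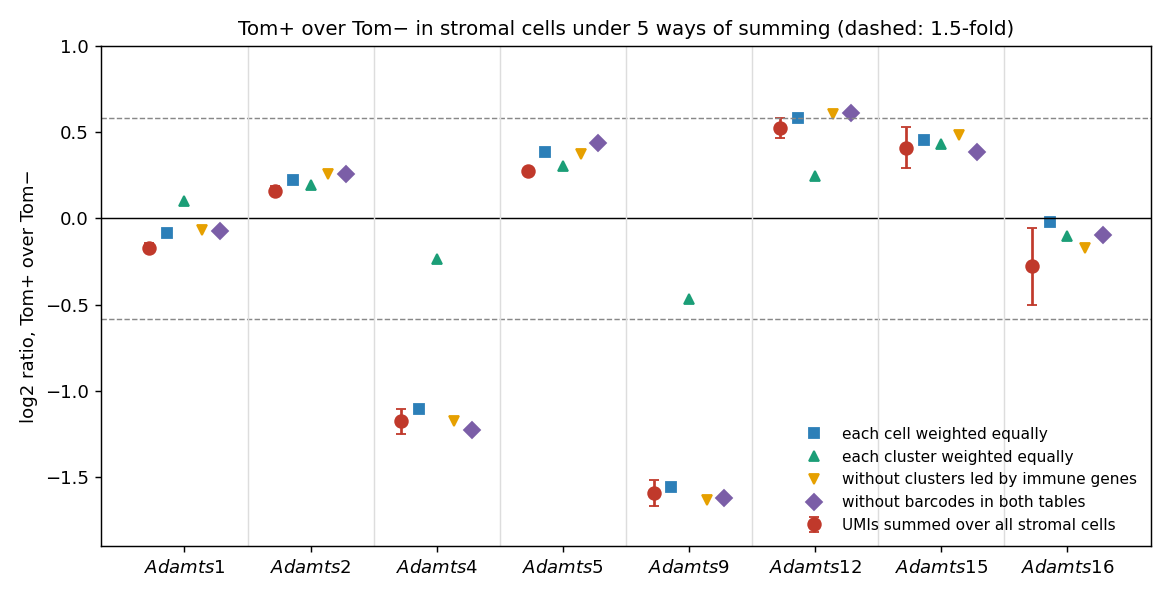
The log2 ratio of Tom+ over Tom- stromal cells (y axis) for each ADAMTS gene (x axis), with UMIs summed over all cells (red circles with 95% intervals) and in 4 other ways given by marker shape, and dashed lines at 1.5-fold. Adamts4 and Adamts9 lie well below the lower line except where each cluster counts equally (green triangles, -0.23 and -0.46).

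In mesothelial cells the sort comparison rested on few Tom+ cells. Adamts9 was lower in the Tom+ library there too, at a log2 ratio of -0.75 (95% interval -1.08 to -0.43). Adamts1 stood at -0.26, Adamts2 at -0.13 and Adamts5 at 0.33. Adamts4 stood at -2.15 (-3.23 to -1.25), from 10 Tom+ UMIs, and at -1.16 without the barcodes listed in both tables. The Adamts5 value did not hold: of the 250 Tom+ mesothelial cells only 150 have a barcode that the Tom- table does not list, and over those the ratio was -0.18. Adamts9 stayed below 0 under every alternative tried (lowest -0.82, highest -0.54).

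The stromal cells were divided into 12 clusters with the 8 genes left out of the genes used for clustering, and clusters are called by their leading genes. Values by cluster are for the 8 clusters that held at least 50 cells of each library unless another is named. Adamts4 and Adamts9 shared their high clusters. Adamts9 read 257 CPM in the cluster led by Cpxm2, Mfap4 and Il6 (cluster 11) and 256 CPM in the cluster led by Thbd, Hsd11b1 and Usp2 (cluster 10), which did not differ beyond counting error. Adamts4 read 255 and 186 CPM in the same clusters. Both were lowest in the cluster led by Chchd10, Edn1 and Sox4 (cluster 1), at 4.35 CPM for Adamts9 and 19.9 CPM for Adamts4, so that Adamts9 ranged 59.1-fold over the 8 clusters. Of the smaller clusters, that led by Calca, Ncam1 and Gatm (215 cells) read 151 CPM of Adamts9 and that led by mast cell genes 251 CPM.

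Of the 8 clusters, these also differed most in their origin. Tom+ cells made up 76.2% of the Chchd10 cluster, 14.7% of the Il6 cluster and 17.5% of the Thbd cluster. The Adamts4 and Adamts9 profiles were close to each other and to that of Il6, which encodes the inflammatory cytokine interleukin 6. Over the 17 profiles of cluster and library with at least 50 cells, Pearson's r of log2 levels was 0.92 between Adamts4 and Adamts9 and 0.95 between Adamts4 and Il6, the gene most like Adamts4 of 5669 compared. Profiles of a library share their cells' preparation and depth, so these r are descriptive. In single thinned cells, UMIs of both Adamts4 and Adamts9 met 2.70 times (Tom+) and 1.84 times (Tom-) as often as independent shares would give.

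Adamts12 was laid out differently. It was highest in the cluster led by Cd36, Aspn and Timp1 (cluster 4, 198 CPM), followed by the cluster of Vtn, Aspa and Igf1 (cluster 9, 112 CPM), and lowest in the Il6 cluster (19.4 CPM), with 91.2 CPM in the Thbd cluster. Its r was -0.20 with Adamts4 and -0.34 with Adamts9. The genes most like it were Acvr2a (r = 0.98), which encodes an activin receptor, Fzd4 (r = 0.97), a Wnt receptor gene, and Hmgcs1 (r = 0.95), of sterol synthesis. Adamts15 peaked in the same Cd36 cluster at 37.4 CPM, with 27.4 CPM in the Vtn cluster and 27.3 CPM in the Chchd10 cluster. It was lowest in the Thbd cluster, at 8.02 CPM.

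Adamts16 was nearly restricted to a single cluster. The cluster led by Efhd1, Gm15675 and Dmkn (cluster 7) held 13.8% of the cells of the 8 clusters and 86.1% of their Adamts16 UMIs. Its level was 39.9 CPM, and the next level was 3.46 CPM in the Chchd10 cluster. Adamts16 was compared with other genes over the profiles. Its 3 most similar genes were Cd55 (r = 0.96) and Sema3c (r = 0.93), both known from interstitial progenitors of fat, and Efhd1 (r = 0.95). Within this cluster the Tom+ and Tom- levels of 38.4 and 40.9 CPM did not differ beyond counting error (log2 ratio -0.09, 95% interval -0.34 to 0.15). The same cluster had the highest Adamts5 level, at 1871 CPM, ahead of 1588 CPM in the Chchd10 cluster.

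Outside the immunoglobulin cluster, Adamts1 and Adamts2 varied least. Adamts1 was highest in the Thbd cluster (803 CPM) and in the cluster of Pi15, Pdlim3 and Myh11 (cluster 2, 743 CPM), and stood between 362 and 626 CPM in the others of the 8 clusters except that led by immunoglobulin genes (cluster 3, 105 CPM). Adamts2 ran from 699 CPM in the Il6 cluster and 559 CPM in the Cd36 cluster down to 319 CPM in the Vtn cluster, with 121 CPM in the immunoglobulin cluster. In that cluster Adamts5 too had its lowest level, 217 CPM.

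**Figure D3:**
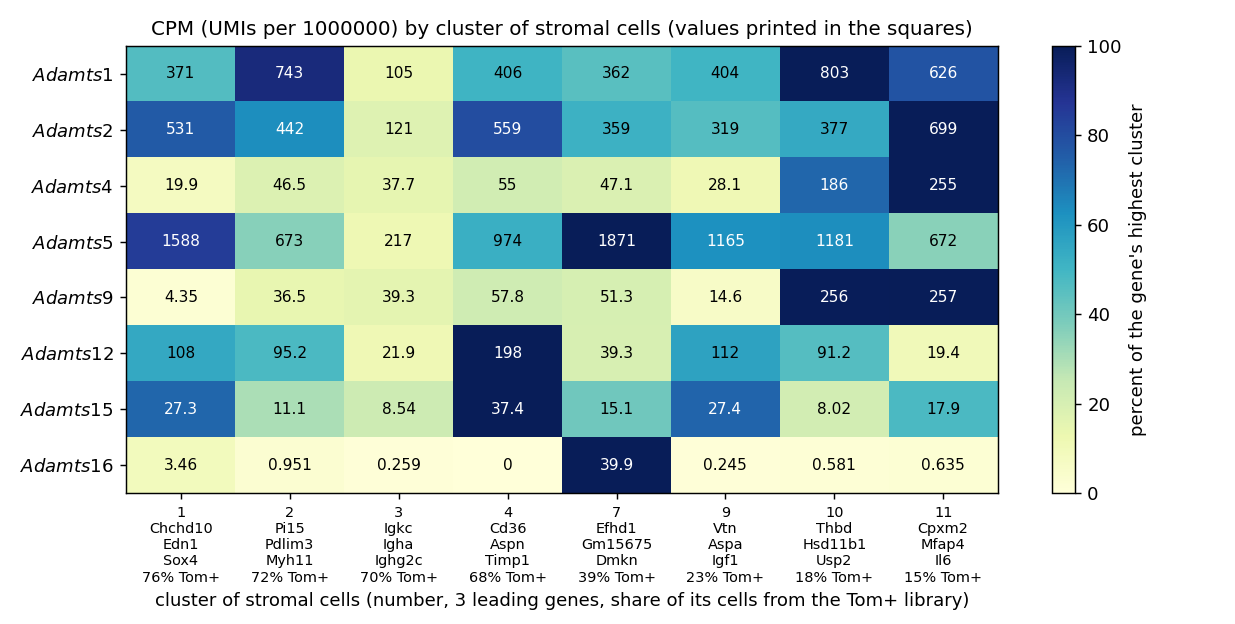
Level in CPM of each ADAMTS gene (rows) in the 8 stromal clusters that hold at least 50 cells of each library (columns, ordered by their share of Tom+ cells), with the value printed in each square and the colour giving the percent of the gene's highest cluster. Adamts4 and Adamts9 are darkest in clusters 10 and 11 on the right, Adamts12 and Adamts15 in cluster 4, and Adamts16 only in cluster 7, at 39.9.

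Within clusters, Adamts5 was higher in the Tom+ library in 8 of 8 clusters, each with its interval above 0, at log2 ratios from 0.16 to 0.64. Adamts2 was higher in 7 of 8, from -0.13 to 0.38, and Adamts12 in 7 of 8. The Adamts12 exception was the cluster of Pi15, Pdlim3 and Myh11 (-0.41), and its highest ratio (2.50) came from the immunoglobulin cluster, where only 10 UMIs were counted in the Tom- library.

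Adamts9 was lower in the Tom+ library in 7 of 8 clusters and 5 intervals lay below 0. The difference was large in the Chchd10 cluster (2.51 against 11.5 CPM, log2 ratio -2.19), the Efhd1 cluster (23.4 against 70.5 CPM, -1.59) and the Cd36 cluster (43.0 against 96.7 CPM, -1.17). In the Il6 cluster, where the gene was high, it read 238 and 261 CPM (-0.13, 95% interval -0.28 to 0.005). Adamts4 was lower in 5 of 8 clusters with 3 intervals below 0, with ratios of -1.12 in the Efhd1 cluster, -0.73 in the Cd36 cluster and 0.05 in the Il6 cluster. In the Thbd cluster, high in both genes, the ratios were -0.48 for Adamts9 and -0.42 for Adamts4, with both intervals below 0. Neither gene differed beyond counting error in the Il6, Vtn and Pi15 clusters, nor did Adamts4 in the Chchd10 and immunoglobulin clusters. Adamts1 was higher in 6 of 8 clusters, unlike its summed ratio of -0.17.

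**Figure D4:**
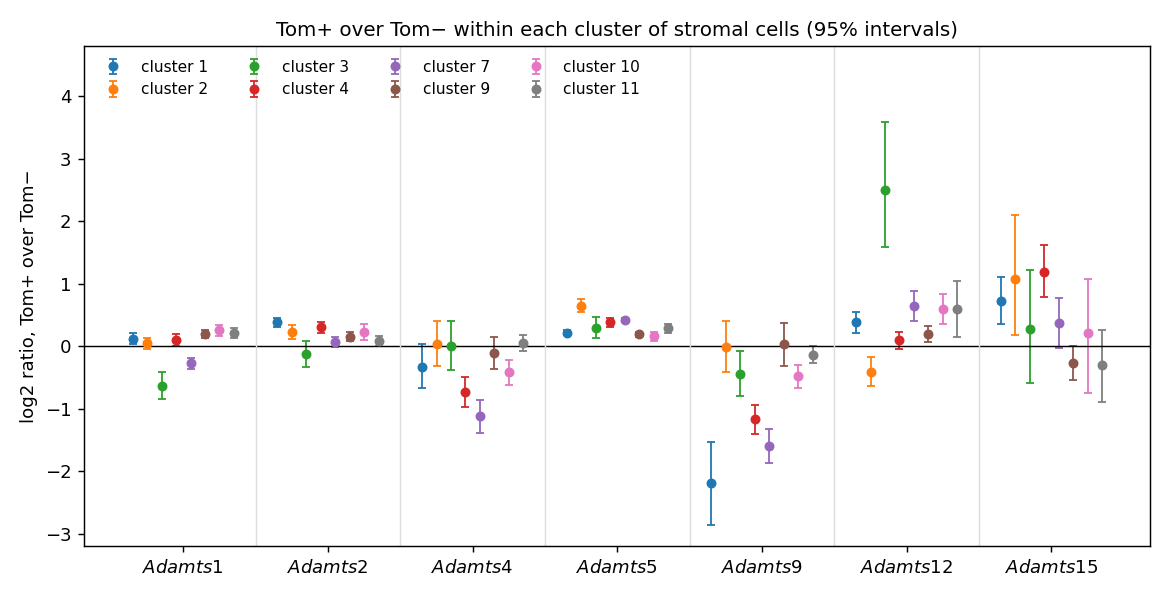
The log2 ratio of Tom+ over Tom- (y axis) within each of 8 stromal clusters (colours, numbered as in the plot of levels by cluster) for 7 ADAMTS genes (x axis), with 95% intervals of counting error; Adamts16 is left out because most clusters held under 10 of its UMIs. All 8 Adamts5 points lie above 0, and Adamts9 spreads from -2.19 to 0.03.

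The tdTomato transcript can also be read inside the Tom+ library. All of these cells passed the same sort, so its UMIs do not repeat the Tom+ over Tom- comparison. Of 3263 Tom+ stromal cells, 2329 had no tdTomato UMI, 604 had 1 to 4 and 330 had 5 or more. Of these 330 cells 151 lay in the clusters led by immunoglobulin, mast cell and T cell genes, so the comparison is given without those clusters, a choice made after seeing the data. Adamts9 then read 32.3 CPM in 2306 cells without a reporter UMI, 37.4 CPM in 582 cells with 1 to 4 and 91.3 CPM (79.6 to 104) in 179 cells with 5 or more. Reporter-rich cells thus had more Adamts9 than reporter-free cells of the same library, at a log2 ratio of 1.498 (95% interval 1.28 to 1.71), whereas the Tom+ library as a whole had less than the Tom- library. Both comparisons use the same Tom+ cells. In the Tom- library 608 stromal cells outside those clusters also had 1 to 4 reporter UMIs and none had more, and Adamts9 was lower in them than in cells without (96.0 against 116 CPM).

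Adamts4 read 44.6, 38.6 and 75.1 CPM over the 3 reporter levels (log2 ratio 0.75 for the highest over the lowest), but within clusters its intervals included 0 in the Il6 (0.30), Efhd1 (0.20), Vtn (-0.32) and Chchd10 (-0.59) clusters. Adamts15 (-0.84), Adamts2 (-0.48), Adamts12 (-0.44) and Adamts5 (-0.25) were lower in the reporter-rich cells, and Adamts1 (0.17) was slightly higher. Within the same clusters these differences held only in part. Adamts5 stood at -0.04, -0.04 and 0.01 in the Chchd10, Efhd1 and Vtn clusters and at -0.41 in the Il6 cluster. Adamts2 was lower in the Chchd10 (-0.44), Vtn (-0.32) and Il6 (-0.47) clusters but not in the Efhd1 cluster (0.11). Adamts12 was lower beyond counting error in the Vtn cluster alone (-0.48). Adamts15 stood at 0.37 in the Vtn, -0.98 in the Chchd10 and -0.84 in the Efhd1 cluster, each interval including 0. The last 2 rest on 5 and 3 reporter-rich UMIs. In the Il6 cluster Adamts15 had 0 UMIs in reporter-rich and 26 in reporter-free cells. Adamts1 was lower in the Efhd1 (-0.71) and Vtn (-0.37) clusters. Adamts16 stood at -0.03, with an interval on both sides of 0. With the immune-led clusters left in, the Adamts9 ratio was 0.80 and the Adamts1 ratio turned to -1.01. Reporter-rich cells were unevenly spread, making up 2.11% of the Tom+ cells of the Chchd10 cluster, 14.8% of the Il6 cluster and 13.2% of the Thbd cluster. They also made up 12.4% of the Vtn cluster (59 cells) and 2.22% of the Cd36 cluster. Over both libraries Adamts9 read 257 CPM in the Il6, 256 CPM in the Thbd and 4.35 CPM in the Chchd10 cluster. It read 14.6 CPM in the Vtn and 57.8 CPM in the Cd36 cluster. The part of this uneven spread in the Adamts9 ratio over all clusters was not tested. In the Calca cluster they were 56.7% of 30 Tom+ cells. Within the Il6 cluster Adamts9 read 283 CPM in 24 reporter-rich and 213 CPM in 112 reporter-free cells (0.41, 95% interval 0.04 to 0.77). Within the Efhd1 cluster it read 61.3 CPM, from 18 UMIs in 20 reporter-rich cells, and 24.5 CPM (1.32, 0.52 to 2.05). Within the Vtn cluster it read 18.9 and 14.3 CPM (0.40, -0.59 to 1.27). In the Chchd10 cluster Adamts9 had 0 UMIs in 22 reporter-rich cells and 2.62 CPM in 832 reporter-free cells. Clusters with under 20 reporter-rich cells, such as the Thbd cluster (17) and the Cd36 cluster (10), were not compared in this way.

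**Figure D5:**
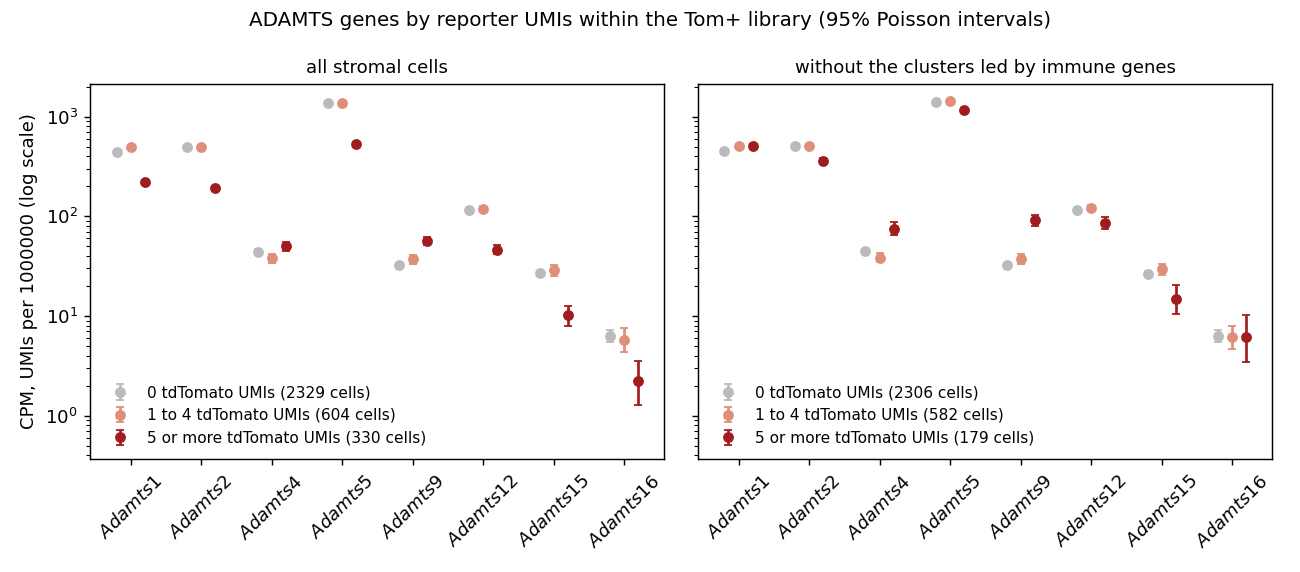
Level in CPM on a log scale (y axis) of the ADAMTS genes (x axis) in Tom+ stromal cells with 0, 1 to 4 and 5 or more tdTomato UMIs (grey to dark red), with 95% Poisson intervals, over all stromal cells on the left and without the clusters led by immune genes on the right. Adamts9 reaches 91.3 in the reporter-rich cells on the right. The low reporter-rich values of Adamts1 and Adamts5 on the left, at 222 and 529, stand at 505 and 1167 on the right.

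Cdkn2a, the gene of p16 itself, read 4.66 CPM in Tom+ and 5.79 CPM in Tom- stromal cells, so among stromal cells its count was not higher after the Tom+ sort. Mesothelial cells went the other way, with 12.4 CPM (Tom+, 66 UMIs) against 8.47 CPM (Tom-, 274 UMIs). By qPCR on sorted APCs, the paper reports more p16 mRNA in the Tom+ fraction. The counts used here are per gene, and the reason for the difference from the qPCR was not tested. Cells with a Cdkn2a UMI were few: 103 Tom+ and 163 Tom- stromal cells outside the immune-led clusters. Adamts5 was lower in them than in the other cells in both libraries (995 against 1398 CPM and 705 against 1081 CPM, log2 ratios -0.49 and -0.62), and so was Adamts12 (-0.36 and -0.55). Adamts9 stood at 0.31 (Tom+, 95% interval -0.04 to 0.64) and 0.32 (Tom-, 0.15 to 0.48). With the immune-led clusters left in, the Tom+ value was 0.67 (0.39 to 0.94). These groups had higher median UMI counts (15140 and 12641 against 14017 and 11217), whose part in the result was not tested.

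Of the other ADAMTS genes, Adamts7, Adamts10 and Adamts14 reached 5 CPM in a class. Adamts10, which takes part in fibrillin microfibrils, read 26.6 and 24.0 CPM in stromal and 9.77 and 12.5 CPM in mesothelial cells. The ADAMTS-like gene Adamtsl1, whose product lacks the protease domain, had the reverse layout of the 8 proteases, at 151 and 149 CPM in mesothelial and 47.7 and 52.2 CPM in stromal cells. Its mesothelial over stromal log2 ratios were 1.67 (Tom+) and 1.51 (Tom-).

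The substrate versican (Vcan) was stromal like its proteases, at 155 and 163 CPM in stromal and 16.3 and 20.4 CPM in mesothelial cells, and differed little between the libraries (log2 ratio -0.07). Aggrecan (Acan) had no UMI. Of 20 listed substrates 16 passed the level, of which 1 was at least 1.5-fold higher (3.86% of all genes) and 4 were lower (3.25% of all genes) in Tom+ stromal cells. In the Tom+ library 10 of 16 were at least 2-fold lower in mesothelial than stromal cells (10.1% of all genes) and 3 were at least 2-fold higher (13.1% of all genes), namely Fmod (375 against 12.9 CPM), Efemp1 (2292 against 444 CPM) and Nid2 (144 against 58.4 CPM). In the sort comparison the lower ones were Fmod, Thbs1, Efemp1 and Tfpi2, and the higher one was Col3a1, a fibrillar collagen whose propeptide Adamts2 can remove (5483 against 3611 CPM, 0.60). Among inhibitors, Timp3 read 560 and 450 CPM in stromal and 823 and 677 CPM in mesothelial cells, so the ADAMTS inhibitor was higher in mesothelial cells while the proteases were lower. Timp1 was lower in Tom+ stromal cells (70.7 against 138 CPM, -0.96). The activating convertase gene Furin (44.99 and 39.7 CPM) and the clearance receptor gene Lrp1 (852 and 716 CPM) differed less between the libraries, at 0.18 and 0.25.

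Genes that respond to tissue dissociation moved with the sort as well. Of 30 such genes 25 had a log2 ratio below 0 in Tom+ stromal cells, with a median of -0.32 beside 0.07 over all genes. At least 1.5-fold lower were 6 of the 30 (3.25% of all genes), and 0 were as much higher (3.86% of all genes). Their summed levels were 40550 CPM (Tom+) and 49230 CPM (Tom-). Between the Tom- stromal cells of the upper and the lower tertile of these transcripts, the log2 ratio was -0.05 (95% interval -0.14 to 0.04) for Adamts9 and -0.31 for Adamts4. In the Tom+ library it was 0.16 (-0.01 to 0.32) for Adamts9 and 0.07 (-0.08 to 0.23) for Adamts4. It was 0.97 (Tom-) and 0.65 (Tom+) for Adamts12, and -2.70 (Tom-) and -0.75 (Tom+) for Adamts16. Adamts1 (0.33 in Tom-, 0.78 in Tom+), Adamts5 (0.22 and 0.65) and Adamts15 (0.64 and 0.38) were higher in the upper tertile of both libraries. In thinned cells these ratios were 0.24 and 0.59 for Adamts1, 0.17 and 0.42 for Adamts5 and 0.81 and 0.64 for Adamts15. The tertiles were taken over all stromal cells, with the immune-led clusters left in. Adamts2 stood at -0.29 (Tom-) and 0.19 (Tom+). The part of these transcripts in the sort comparison was not tested. These strata were added after the data were seen.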

How the data were processed

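UMI counts per gene and cell barcode were deposited as raw counts for 2 libraries of the 10x Genomics 3' kit v3.1. The authors made them with Cell Ranger 3.0.2 against mm10, per the submitters' processing notes. Barcodes were kept here if they had over 1000 genes, under 7000 genes and less than 8% mitochondrial UMIs, no doublet caller was run, and UMIs were summed over the cells of a class. Levels are per 1000000 UMIs (CPM), with exact Poisson intervals. Ratios carry exact conditional intervals at 95%, shares exact Clopper-Pearson intervals, and all cover counting error only. The level required of a gene was 5 CPM, as the mean of the groups compared. With 1 library per condition there is no p-value, and folds of 1.5 (sort) and 2 (cell class) were counted over members and all genes. For shares, cells were thinned to 7204 UMIs, leaving out 240 Tom+ and 567 Tom- stromal cells. Stromal cells were clustered by Leiden (leidenalg 0.10.2) on 2000 variable genes without the members, 30 components and 20 neighbours, at resolution 0.4. Likeness is Pearson's r of log2(CPM + 1) over clusters by library. Gene positions are from GENCODE vM21. Motifs were searched in the 250 bases before RefSeq starts. The members and gene lists were chosen with earlier results of these data known. Named were the 8 members, related genes of at least 5 CPM, pathway genes by role or by extreme ratio, the 3 most similar genes and the 3 leading genes of a cluster. The ratio step was tested on simulated data: all 200 genes changed 3-fold among 9775 in the Tom+ and Tom- comparison, and all 200 changed 4-fold among 10023 in the Tom+ library's mesothelial comparison, were recovered. The simulated counts were Poisson draws without variation between cells or libraries, and the folds lay well above the limits of 1.5 and 2. This checks the computation only and says nothing about variation between libraries. Alternatives covered scaling, cell weights, cell filters, class limits, a stromal gate, depth, low values and cluster weights.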

Additional observations from a re-analysis of the deposited data

Results flagged for a closer look

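Adamts2 stood higher in the Tom+ library in stromal cells (log2 ratio 0.16) and lower in it in mesothelial cells (log2 ratio -0.13), which puts the same contrast on opposite sides of 0 in the 2 classes. With 1 library per condition the difference was not tested. The 8 genes were also read in barcodes that did not pass the cell filter and enter no comparison. There they summed to 972 CPM over 2042 barcodes of the Tom+ library and to 1061 CPM over 5121 barcodes of the Tom- library. The floor, set at 3 counts, stood at 0.647 and 0.465 CPM. Adamts5 was read in those barcodes at 420 and 353 CPM and Adamts9 at 43.8 and 60.4 CPM.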

How the results depend on the processing

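No paired analysis was possible because each condition is 1 library. The 7 members at least 2-fold lower in mesothelial cells stayed so under all alternatives, as did all 143 ratios recomputed for the 8 members (log2 -6.63 to -1.09). The count of 2 members lower in Tom+ stromal cells fell to 0 with clusters weighted equally, and the count of 0 higher became 1 with the stromal gate, without the clusters led by immune genes and without barcodes in both tables, the last 2 settings having been chosen after seeing the data. The planned gate on stromal markers left 16 Tom+ and 835 Tom- stromal cells, since 3247 of the 3263 Tom+ stromal cells had a UMI of Igkc, and over those the log2 ratios turned to 0.89 for Adamts4, -0.53 for Adamts5, -0.78 for Adamts12, -0.64 for Adamts15, -0.35 for Adamts2 and 0.003 for Adamts1. The mesothelial Tom+ over Tom- ratio of Adamts12 turned to 0.51 in thinned cells, where 7 of 247 Tom+ and 28 of 1803 Tom- cells held a UMI of it. Without the clusters led by immune genes the Adamts1 ratio of reporter-rich over reporter-free cells turned from -1.01 to 0.17. Over all genes, 377 were higher and 318 lower in Tom+ stromal cells. These became 2677 and 2451 with the gate, 3990 and 3399 with no filter on low values and 143 and 152 with clusters weighted equally. The mesothelial counts of 1345 higher and 1034 lower in the Tom+ library became 2717 and 2016 with the gate and 3925 and 6120 with no filter, and those of 1195 and 924 in the Tom- library became 4378 and 4685 with no filter. Causes were not tested beyond the cell numbers given. Depth limits Adamts16 and the mesothelial readings of Adamts4 and Adamts12, of which the Tom+ library held 7, 10 and 17 UMIs.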
